A study of Mus musculus with 60 samples.

Results

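Adult neurogenesis stage markers are 35 genes that mark successive steps by which new granule neurons form in the adult dentate gyrus (DG), taken here from a list of 11 stem cell, 6 progenitor, 12 immature neuron and 6 granule neuron markers. All 35 were found, once each, among the 46480 genes with counts. RNA-Seq, which counts sequenced RNA fragments on each gene, was done on whole tissue punched from the dorsal and ventral DG of male C57BL6J mice aged 80 days. The labels name no transgene or deletion. Mice were weaned on day 22 into standard housing (SH) or an enriched environment (EE), a large cage with running wheels and toys that were exchanged every week, for 8 weeks. Each sample pooled tissue of several mice, and the dorsal and ventral samples of 1 replicate number were taken to come from the same mice. The 4 groups were dorsal SH (n = 4), dorsal EE (n = 5), ventral SH (n = 4) and ventral EE (n = 5), so 18 samples of 9 pools were used.

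SH replicate 3 was left out in both regions. Its Xist level was 34.35 CPM (read counts scaled to a common library size, here without further correction) in the dorsal and 11.86 CPM in the ventral sample, against at most 0.6515 CPM in the 18 samples used, although all mice are given as male. Fragments counted on genes ranged from 22919364 to 28301861 per sample (median 25816352). All other levels are CPM after TMM scaling, which corrects for library size and composition. The tissue label was checked with 6 markers of dentate granule neurons (*Prox1*, which is also a member, and *C1ql2*, *Dsp*, *Dock10*, *Plk5* and *Tdo2*), all of which were detected in both regions. Their summed level was 936 to 1086 CPM in the 9 dorsal samples and 398 to 581 CPM in the 9 ventral ones. Dorsal SH replicate 1 stood apart from the other dorsal samples in markers of the choroid plexus, a tissue that lines the ventricles next to the hippocampus, with a summed level of 208 CPM of 6 markers against 22.5 to 68.9 CPM in the other dorsal samples.

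In the adult DG, radial glia-like stem cells of the subgranular zone divide rarely and give rise to intermediate progenitors, which exit the cell cycle as neuroblasts. These become immature neurons that extend processes for some weeks and then join the granule cell layer as mature, glutamatergic granule neurons. Some transcription factors of the Sox family, such as *Sox2*, hold the stem cell state, factors of the basic helix-loop-helix and T-box families drive the commitment to a neuron, and cytoskeletal proteins serve the growth of its processes. Many stem cell markers are also expressed by astrocytes, and most mature granule neurons in adult tissue were born early in life.

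The promoters of 1 member for each stage are shown because the members of a stage are compared as a group below, and a shared element before the start site would be a feature that the list did not use. The member with the largest region difference of its stage was taken, or the next one where RefSeq gave no window (*Igfbpl1*). The windows hold the 250 bases before the start site in RefSeq (build GRCm38.p6), 5′ to 3′ on the strand of the gene. The *Sox5* window lies before an internal start site, since the annotated gene spans chr6:143828425-144781977 on the minus strand. It does not show the bases before the 5′ end of that gene. Capitals mark CANNTG, the E-box, to which basic helix-loop-helix factors such as *Neurog2*, *Neurod1* and *Bhlhe22* bind.
Sox5 (stem cell marker, chr6:143947107-143947356, minus strand): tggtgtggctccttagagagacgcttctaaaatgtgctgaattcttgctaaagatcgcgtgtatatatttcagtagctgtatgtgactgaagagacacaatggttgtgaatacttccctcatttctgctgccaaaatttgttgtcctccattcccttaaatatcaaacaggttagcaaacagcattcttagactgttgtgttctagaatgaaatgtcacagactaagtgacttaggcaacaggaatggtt
Eomes (progenitor marker, chr9:118477939-118478188, plus strand): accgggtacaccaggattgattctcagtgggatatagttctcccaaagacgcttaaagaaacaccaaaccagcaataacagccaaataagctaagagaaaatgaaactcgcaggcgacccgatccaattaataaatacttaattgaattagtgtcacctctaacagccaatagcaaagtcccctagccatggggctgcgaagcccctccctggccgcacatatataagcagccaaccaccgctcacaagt
Draxin (immature neuron marker, chr4:148130699-148130948, minus strand): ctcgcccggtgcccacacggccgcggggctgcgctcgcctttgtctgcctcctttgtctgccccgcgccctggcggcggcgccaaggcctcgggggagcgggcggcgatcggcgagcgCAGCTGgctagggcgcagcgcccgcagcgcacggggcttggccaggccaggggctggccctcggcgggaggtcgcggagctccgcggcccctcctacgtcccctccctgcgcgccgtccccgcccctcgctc
Prox1 (granule neuron marker, first start site, chr1:190170828-190171077, minus strand): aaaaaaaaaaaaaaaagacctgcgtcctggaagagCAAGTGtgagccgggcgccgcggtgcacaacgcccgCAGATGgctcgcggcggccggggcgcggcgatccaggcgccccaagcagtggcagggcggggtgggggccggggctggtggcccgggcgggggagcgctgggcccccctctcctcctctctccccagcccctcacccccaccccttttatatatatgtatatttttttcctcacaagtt
Prox1 (second start site, chr1:190169516-190169765, minus strand): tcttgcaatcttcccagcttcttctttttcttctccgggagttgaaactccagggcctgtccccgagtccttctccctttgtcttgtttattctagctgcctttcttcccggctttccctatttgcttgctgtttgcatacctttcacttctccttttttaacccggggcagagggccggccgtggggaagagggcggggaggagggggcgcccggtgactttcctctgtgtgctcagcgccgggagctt

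The *Draxin* window holds 1 E-box and the first *Prox1* window holds 2, while the *Sox5*, *Eomes* and second *Prox1* windows hold none. Windows were at hand for 24 members (36 windows, since some members have several start sites). At least 1 CANNTG, which reads the same on both strands, was found in 9 of 14 windows of members that were higher in dorsal DG (64.3%) and in 7 of 13 windows of members that were higher in ventral DG (53.8%), beside 66.2% of all 32851 promoter windows of this length. The form CAGATG, searched on both strands and itself a CANNTG, was found in 2 of 14 and in 2 of 13 of these windows, beside 14.4% of all windows. AACAAAG, a form to which Sox proteins bind, searched on both strands, was found in 1 of 14 and in 3 of 13, beside 5.03% of all windows. The 3 ventral ones are windows of *Sox6*. *Sox6* alone gives 6 of the 13 ventral windows. Counted by member, 9 of 12 dorsal-higher members (75%), 2 of 7 ventral-higher members (28.6%) and 3 of 5 members that did not pass (60%) had a CANNTG in at least 1 window, and with so few members these shares are a description only.

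Levels of different genes were compared in TPM, which divides by transcript length, within the same samples. The members spanned more than 2 orders of magnitude. *Stmn1* was highest (86.0 ± 16.6 TPM; SD, 18 samples), followed by *Tubb3* (52.2 ± 10.1 TPM), *Hopx* (45.9 ± 4.80 TPM), *Stmn2* (44.8 ± 11.4 TPM) and *Ncam1* (32.9 ± 8.18 TPM). *Eomes* (0.180 ± 0.0900 TPM), *Neurog2* (0.168 ± 0.0570 TPM) and *Draxin* (0.206 ± 0.0818 TPM) were lowest, below *Insm1* (0.473 ± 0.0832 TPM), *Rest* (0.873 ± 0.171 TPM) and *Dcx* (0.928 ± 0.349 TPM). The order of the lowest 3 turned with region: *Neurog2* was at 0.175 (SH) and 0.118 TPM (EE) in dorsal DG and 0.200 (SH) and 0.186 TPM (EE) in ventral DG, *Eomes* at 0.307 (SH) and 0.208 TPM (EE) in dorsal DG and 0.122 (SH) and 0.0960 TPM (EE) in ventral DG and *Draxin* at 0.305 (SH) and 0.244 TPM (EE) in dorsal DG and 0.163 (SH) and 0.122 TPM (EE) in ventral DG. Only the order of genes within a group can be read from these values, not a difference between SH and EE. The 4 genes with the highest TPM held 57.9 to 67.8% of it, depending on the sample. In CPM, *Draxin* was at 2.87 ± 0.191 in dorsal SH and 2.79 ± 0.440 in dorsal EE (SD). Mean levels ranged from 0.873 to 45.9 TPM for stem cell, 0.168 to 21.1 TPM for progenitor, 0.206 to 86.0 TPM for immature neuron and 3.75 to 32.9 TPM for granule neuron markers. Cytoskeletal genes that neurons of many kinds express were at the top, and the progenitor markers were spread from the bottom (*Neurog2*) to the upper part of the order (*Neurod2*). Neighbours in this order overlapped within 1 SD of their means in 29 of 34 cases. *Stmn1* and *Tubb3*, *Sox2* and *Neurod1*, *Pax6* and *Sox6*, *Rest* and *Insm1*, and *Insm1* and *Draxin* were apart. The SD was taken over all 4 groups and includes the differences between them, so this overlap does not measure how certain the order is. The level of *Stmn1* is uncertain: its expected count, in which fragments that fit several genes are shared out, was 1.66 times the count of unique fragments, against 0.894 to 1.065 times for the other 34 members.

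The first comparison asked how the stages differ between the dorsal and ventral DG. Of the 35 members, 26 differed between the regions (edgeR's quasi-likelihood test, Benjamini-Hochberg adjusted p under 0.05, average of the dorsal to ventral differences in SH and EE). Higher levels in dorsal DG were found for 16 members and higher levels in ventral DG for 10. The regions differ widely in this tissue: 58.4% of all 17040 genes tested passed the same test, 29.0% with higher and 29.3% with lower dorsal levels, against 74.3% of the members. With a change of at least 20%, 21 members passed, beside 32.7% of all genes. Without SH replicate 1, whose dorsal sample stood apart in choroid plexus markers, 25 members passed. The direction varied by stage. All 6 stem cell markers that passed were higher in ventral DG, 4 of 5 progenitor markers and 6 of 9 immature neuron markers that passed were higher in dorsal DG, and all 6 granule neuron markers were higher in dorsal DG. Median log2 fold changes were -0.18 for stem cell, 0.58 for progenitor, 0.29 for immature neuron and 0.56 for granule neuron markers, and -0.0046 for all genes. The progenitor markers were spread widely, from -0.71 (*Neurog2*) and -0.11 (*Insm1*, not passed) over 0.28 (*Neurod1*) to 1.02 (*Eomes*). *Neurod2* (0.88) and *Tbr1* (0.89), which lie above their median, are also active in neurons past that step. All members were chosen with earlier results of these data known, so neither their directions nor their share against all genes is independent evidence. *Sox2*, *Neurod1* and *Dcx* were also among the markers that the study itself picked out in these samples. In whole tissue, fewer cells of a type and less RNA per cell cannot be told apart.

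**Figure D1:**
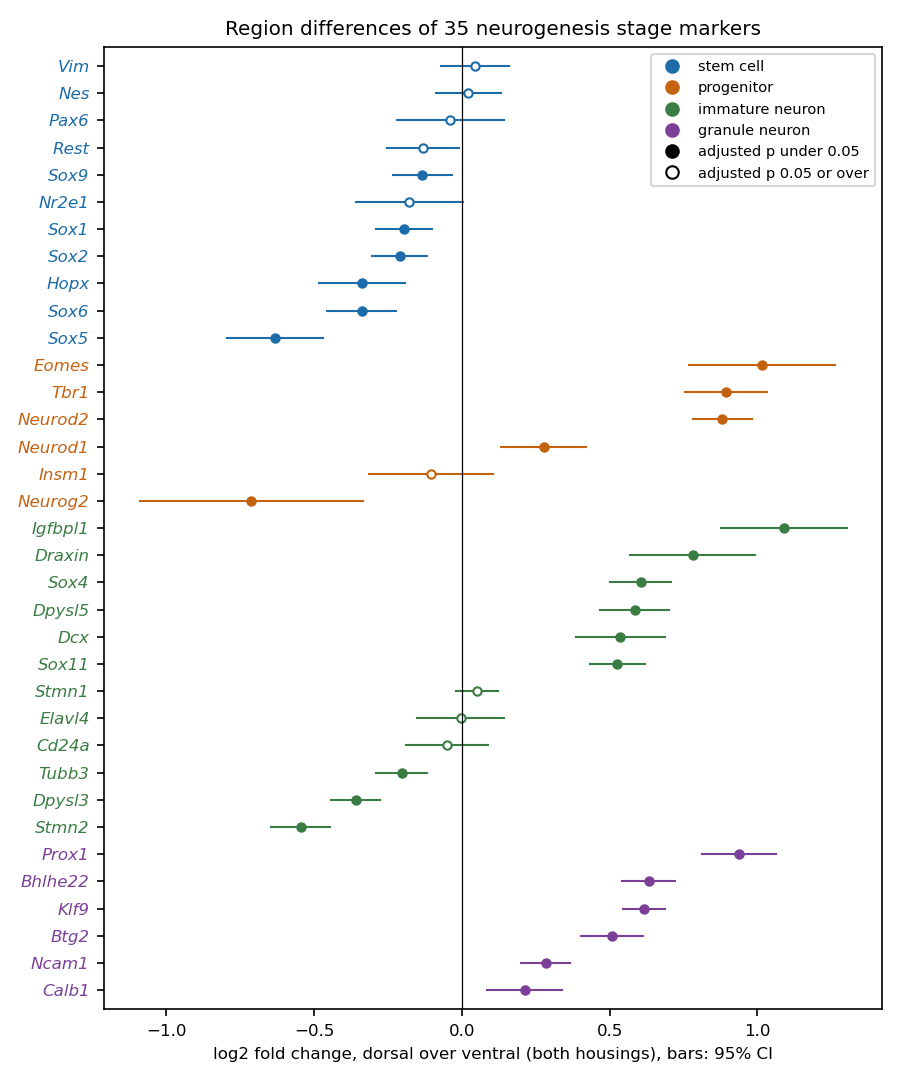
Log2 fold change between dorsal and ventral DG (x axis, above 0 higher in dorsal) of each of the 35 members, grouped by stage (colour), with 95% confidence intervals from edgeR over 18 samples; filled points passed the adjusted p threshold. Stem cell markers lie between -0.63 and 0.05, and all 6 granule neuron markers lie to the right (0.21 to 0.94).

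The samples themselves were apart for part of these members. For 14 members each of the 9 dorsal samples was above each ventral sample, beside 9.51% of all genes, and for 2 members (*Stmn2* and *Dpysl3*) each ventral sample was above each dorsal one, beside 9.44%. Within pools, where the 2 samples are taken to come from the same mice, 23 members went in 1 direction in all 9 pools. The share of all genes that did so was 40.4%. Of the 35 members, 16 had higher dorsal levels in all 9 pools, beside 3416 of 17040 genes. Higher ventral levels in all 9 pools were found for 7 of 35 members, close to the share of all genes (3472 of 17040, 20.4%). The regions overlapped for all 11 stem cell markers. Most of all genes overlapped as well, so this is not read as a trait of the stage. *Sox2*, *Hopx*, *Sox1*, *Sox5* and *Sox6* were higher in the ventral sample of every pool, beside 20.4% of all genes.

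Of the 11 stem cell markers, *Sox5* and *Sox6*, SoxD factors that act with other Sox proteins and are also found in glial precursors, differed most. *Sox5* was at 14.9, 18.2, 16.1 and 15.2 CPM in dorsal SH, 17.6, 14.3, 15.3, 12.8 and 12.8 CPM in dorsal EE, 22.1, 26.0, 21.4 and 23.9 CPM in ventral SH and 25.7, 28.9, 25.5, 17.7 and 23.3 CPM in ventral EE. All ventral samples but 1 (17.7 CPM, EE replicate 4) were above the highest dorsal sample. The log2 fold change was -0.63 (95% interval -0.80 to -0.47, edgeR adjusted p = 4.25e-07). *Sox6* was at 26.0, 26.0, 22.2 and 23.3 CPM in dorsal SH and 25.5, 22.6, 22.2, 19.9 and 21.2 CPM in dorsal EE, against 28.5, 31.6, 25.1 and 27.9 CPM in ventral SH and 31.4, 34.5, 29.1, 26.6 and 32.0 CPM in ventral EE. The 2 ranges overlapped from 25.1 to 26.0 CPM, and the log2 fold change was -0.34 (95% interval -0.46 to -0.22, edgeR adjusted p = 2.19e-05). *Hopx*, a homeodomain protein of quiescent stem cells and astrocytes, had a log2 fold change of -0.34, and in SH its level was 89.2 ± 8.55 CPM dorsally and 111 ± 8.65 CPM ventrally (SD, n = 4 each). The SoxB1 factors *Sox2* and *Sox1*, which maintain the stem cell state, had log2 fold changes of -0.21 and -0.20. *Sox9*, which is needed to form stem cells and is a common astrocyte marker, had -0.13 (adjusted p = 0.0214 by edgeR's test). This call did not pass without EE replicate 5 (-0.09, adjusted p = 0.0848) or without SH replicate 1 (-0.12, adjusted p = 0.0635).

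The other 5 stem cell markers did not pass. The intermediate filament genes *Nes* and *Vim*, which mark the processes of radial glia, had log2 fold changes of 0.02 (95% interval -0.09 to 0.13) and 0.05 (-0.07 to 0.16). *Pax6*, a homeodomain factor of radial glia, was at -0.04 (-0.22 to 0.14). *Nr2e1*, a nuclear receptor that keeps stem cells undifferentiated, was at -0.18 (adjusted p = 0.0857), and *Rest*, a repressor of neuronal genes, at -0.13 (adjusted p = 0.0617), both in edgeR's test. With the pool as a block in the model (replicate block), which compares dorsal and ventral samples of the same pool, both passed edgeR's test (adjusted p = 0.0339 for *Nr2e1* and 0.0186 for *Rest*), and 28 members passed in all.

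Of the 6 progenitor markers, the T-box factors *Eomes* and *Tbr1* differed most. *Eomes*, also known as Tbr2, defines intermediate progenitors and is switched off as neurons mature. It was at 1.72, 1.93, 1.96 and 2.08 CPM in dorsal SH, 1.40, 1.53, 1.504, 1.59 and 1.61 CPM in dorsal EE, 1.09, 0.827, 1.05 and 0.767 CPM in ventral SH and 0.466, 0.770, 0.940, 0.945 and 0.704 CPM in ventral EE. No ventral sample reached the lowest dorsal sample, and the log2 fold change was 1.02 (95% interval 0.77 to 1.26, edgeR adjusted p = 2.06e-07). These levels are low, from 12 to 56 fragments per sample, so counting error adds to their spread. *Tbr1*, which follows *Eomes* in glutamatergic neurons, was at 32.1, 28.7, 33.6 and 32.8 CPM in dorsal SH and 28.1, 24.4, 30.8, 31.0 and 30.9 CPM in dorsal EE, and at 15.3, 15.6, 21.3 and 17.1 CPM in ventral SH and 14.1, 13.8, 15.0, 16.3 and 18.2 CPM in ventral EE. The regions did not overlap here either, with a log2 fold change of 0.89 (95% interval 0.75 to 1.03, edgeR adjusted p = 1.42e-10).

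The basic helix-loop-helix factors did not all go one way. *Neurod2*, which is active in maturing and mature glutamatergic neurons, was in SH at 172 ± 12.2 CPM dorsally and 93.8 ± 10.2 CPM ventrally (log2 fold change 0.88), and *Neurod1*, which drives the final step from progenitor to neuron, had 31.2 ± 2.47 and 26.1 ± 2.73 CPM (log2 fold change 0.28; SD, n = 4 each). *Neurod1* shares exon sequence on the same strand with the annotated gene *Cerkl*, so part of its fragments is uncertain. *Neurog2*, the earliest of these factors, was the only progenitor marker that was higher in ventral DG, with a log2 fold change of -0.71 (95% interval -1.09 to -0.34, edgeR adjusted p = 0.0019). It was at 0.789, 0.535, 0.769 and 0.558 CPM in dorsal SH, 0.589, 0.497, 0.529, 0.652 and 0.489 CPM in dorsal EE, 0.848, 0.939, 1.34 and 0.767 CPM in ventral SH and 0.699, 1.63, 1.18, 0.630 and 1.04 CPM in ventral EE. The regions overlapped, and its counts were low, from 12 to 36 fragments per sample. *Insm1*, a zinc finger factor of dividing progenitors, did not pass (-0.11, 95% interval -0.32 to 0.10).

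**Figure D2:**
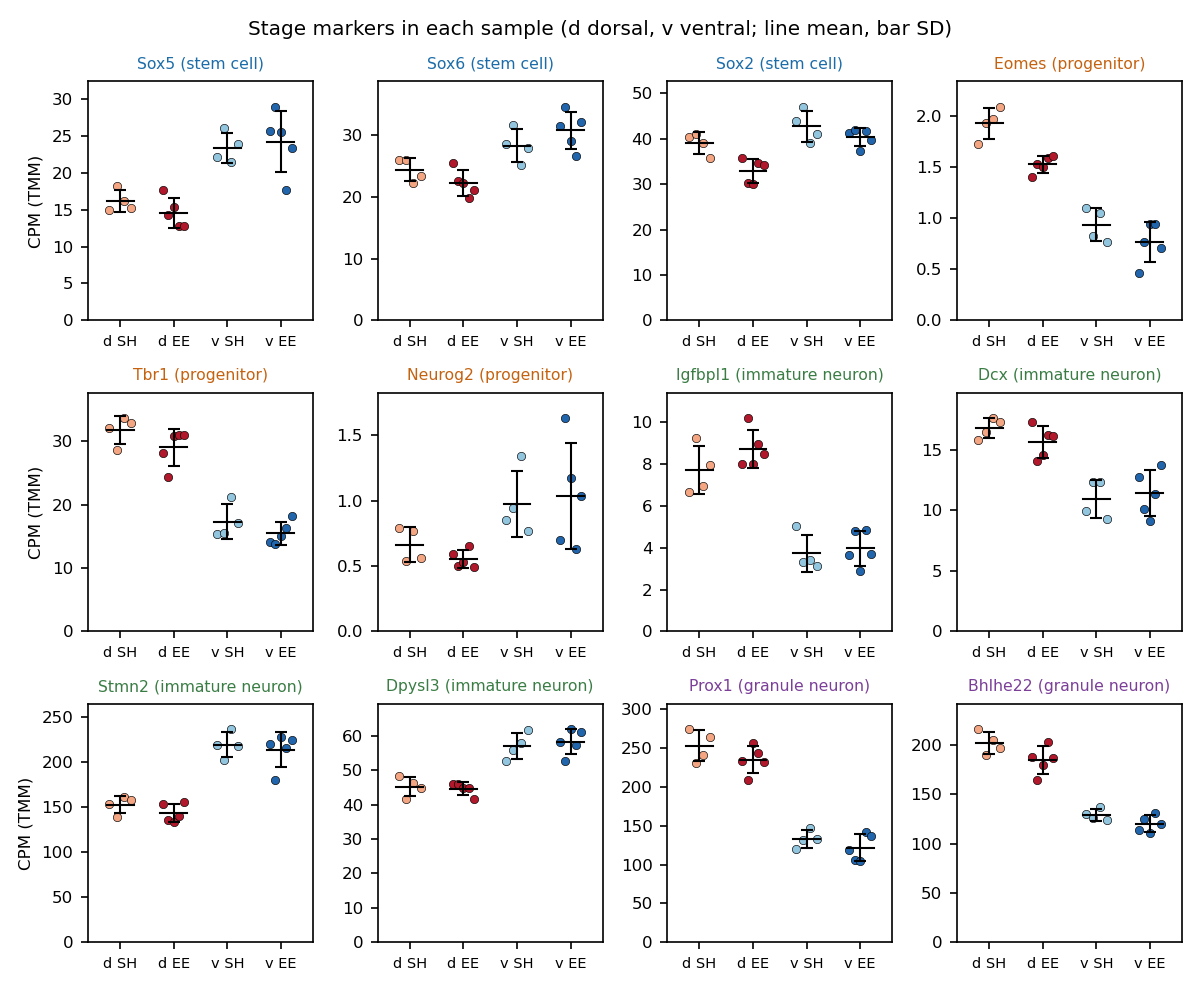
CPM after TMM scaling (y axis, from 0) of 12 members in each of the 18 samples, by group (d dorsal, v ventral); points are samples, horizontal lines are means and bars are SD. *Eomes*, *Tbr1*, *Igfbpl1*, *Dcx*, *Prox1* and *Bhlhe22* are higher in every dorsal sample than in any ventral one, *Stmn2* and *Dpysl3* are lower, and *Sox2*, *Sox5*, *Sox6* and *Neurog2* overlap.

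Among the 12 immature neuron markers, 6 were higher in dorsal DG, 3 were higher in ventral DG and 3 did not pass. *Igfbpl1*, a secreted protein related to insulin-like growth factor binding proteins and a marker of neuroblasts, had the largest log2 fold change of all 35 members, 1.09 (95% interval 0.88 to 1.30, edgeR adjusted p = 6.72e-09). It was at 6.67, 9.25, 6.96 and 7.97 CPM in dorsal SH, 7.99, 10.2, 8.01, 8.97 and 8.50 CPM in dorsal EE, 5.05, 3.31, 3.40 and 3.14 CPM in ventral SH and 3.65, 4.80, 2.90, 4.84 and 3.70 CPM in ventral EE. The lowest dorsal sample lay above the highest ventral one. *Draxin*, a secreted axon guidance protein, was at 3.16, 2.76, 2.78 and 2.79 CPM in dorsal SH, 2.43, 3.11, 2.64, 3.38 and 2.38 CPM in dorsal EE, 1.87, 2.03, 1.78 and 1.61 CPM in ventral SH and 1.51, 1.49, 1.02, 1.85 and 1.52 CPM in ventral EE. It was separated by region as well, with a log2 fold change of 0.78 (95% interval 0.57 to 0.99, edgeR adjusted p = 9.05e-07).

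*Dcx*, a microtubule-binding protein and the usual label of immature neurons, was at 15.8, 16.5, 17.6 and 17.3 CPM in dorsal SH, 17.3, 14.1, 14.6, 16.3 and 16.1 CPM in dorsal EE, 9.92, 12.3, 12.3 and 9.28 CPM in ventral SH and 12.8, 10.1, 9.13, 11.4 and 13.7 CPM in ventral EE. The closest samples of the regions were 14.1 CPM (dorsal EE replicate 2) and 13.7 CPM (ventral EE replicate 5), and the log2 fold change was 0.54 (95% interval 0.39 to 0.69, edgeR adjusted p = 1.54e-06). The SoxC factors *Sox4* and *Sox11*, which switch on *Dcx* and other neuronal genes, had log2 fold changes of 0.60 and 0.53. *Dpysl5*, a collapsin response mediator protein of growing neurites, had 0.58. For these 3 genes, too, no ventral sample reached the lowest dorsal one.

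The opposite direction was found for 3 genes of the neuronal cytoskeleton. *Stmn2*, a stathmin that regulates microtubules in growth cones, was at 154, 139, 161 and 158 CPM in dorsal SH, 153, 135, 134, 140.5 and 156 CPM in dorsal EE, 219, 203, 237 and 218 CPM in ventral SH and 220.2, 180.2, 228, 215 and 225 CPM in ventral EE. Every ventral sample was above every dorsal one, with a log2 fold change of -0.55 (95% interval -0.65 to -0.45, edgeR adjusted p = 2.09e-09). *Dpysl3*, another collapsin response mediator protein, was at 48.2, 41.5, 46.2 and 44.7 CPM in dorsal SH, 46.0, 46.1, 44.7, 44.7 and 41.6 CPM in dorsal EE, 52.6, 55.7, 57.9 and 61.6 CPM in ventral SH and 58.1, 52.7, 61.9, 57.3 and 61.1 CPM in ventral EE. Its regions did not overlap, with a log2 fold change of -0.36 (95% interval -0.44 to -0.28, edgeR adjusted p = 7.08e-08). *Tubb3*, a neuronal tubulin, had -0.20. These 3 genes are expressed by mature neurons of many kinds as well. Mean levels were 52.2, 44.8 and 5.33 TPM for *Tubb3*, *Stmn2* and *Dpysl3* against 0.928 TPM for *Dcx*. The part of such neurons in the direction of these genes was not tested. *Stmn1*, which promotes microtubule turnover (0.05, 95% interval -0.02 to 0.12), *Cd24a*, a surface glycoprotein of neuroblasts and ependyma (-0.05, -0.19 to 0.09), and *Elavl4*, a neuronal RNA-binding protein (0.00, -0.15 to 0.14), did not pass.

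All 6 granule neuron markers were higher in dorsal DG and in the dorsal sample of all 9 pools. *Prox1*, the homeodomain factor that specifies and maintains granule neurons, was at 274, 231, 241 and 264 CPM in dorsal SH, 233, 208, 256, 244 and 232 CPM in dorsal EE, 119.6, 132, 146 and 133 CPM in ventral SH and 118, 106, 105, 142 and 137 CPM in ventral EE. The lowest dorsal sample (208 CPM) was well above the highest ventral one (146 CPM), and the log2 fold change was 0.94 (95% interval 0.81 to 1.06, edgeR adjusted p = 1.09e-11). *Bhlhe22*, a basic helix-loop-helix repressor, was at 216, 189.8, 205 and 196 CPM in dorsal SH, 188, 164, 179.9, 203 and 187 CPM in dorsal EE, 129.7, 126, 137 and 124 CPM in ventral SH and 114, 125, 110.5, 131 and 119 CPM in ventral EE. It was separated by region in the same way, with a log2 fold change of 0.63 (95% interval 0.54 to 0.72, edgeR adjusted p = 2.67e-11). *Klf9*, a hormone-responsive zinc finger factor of late maturation, *Btg2*, an antiproliferative protein, and *Ncam1*, a neural adhesion molecule, had log2 fold changes of 0.62, 0.51 and 0.28, and none of them overlapped between regions. *Calb1*, a calcium-binding protein of mature granule neurons, differed least, by 0.21 (95% interval 0.08 to 0.34, edgeR adjusted p = 0.0052), and its regions overlapped.

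The region difference was also fitted within each housing, on different samples for SH and EE. In SH, 16 members had higher dorsal and 7 had higher ventral levels, while 41.7% of all genes passed (20.9% and 20.8%). In EE, 15 had higher dorsal and 11 had higher ventral levels, while 46.5% of all genes passed (22.9% and 23.6%). The stem cell markers that passed numbered 4 in SH and 7 in EE. *Sox5* had log2 fold changes of -0.54 in SH and -0.73 in EE, and *Sox6* of -0.21 and -0.46. *Sox2* was at -0.13 in SH (adjusted p = 0.12) and at -0.29 in EE (adjusted p = 0.000367), both by edgeR's test, and *Sox9* at -0.01 and -0.26. That a gene passed in one housing and not in the other does not show that the region difference depended on housing, and the test of that dependence passed for no member. *Prox1* (0.93 and 0.95), *Eomes* (1.04 and 0.99), *Igfbpl1* (1.04 and 1.14) and *Stmn2* (-0.52 and -0.57) had close values in SH and EE.

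Genes of the same steps that are not among the 35 were counted by list, and are to be read against the 58.4% of all genes that differed by region (29.0% with higher and 29.3% with lower dorsal levels). Of 8 genes of dividing cells, 5 had higher dorsal levels and 1 had a higher ventral level. *Mki67*, a protein of dividing nuclei, had a log2 fold change of 0.81, and the cyclin *Ccnd2* had -0.25. Of 10 further granule neuron genes, 5 of which are among the markers of the tissue check, 7 were higher in dorsal DG and none in ventral DG, led by the desmosome gene *Dsp* (1.47). Of 12 further stem cell genes, 4 had higher dorsal and 5 higher ventral levels, from *Tfap2c*, a factor of early progenitors (0.99), to the Notch target *Hes1* (-0.99). Of 10 further immature neuron genes, 2 had higher dorsal and 5 higher ventral levels, from the semaphorin *Sema3c* (0.87) to *Calb2*, the calcium-binding protein calretinin (-2.42), which mossy cells and interneurons express as well. The ventral direction of the stem cell members was thus not shared by all stem cell genes, and the dorsal direction of the immature neuron members was not shared by most of the further immature neuron genes that passed.

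Markers of other cells in the punches were counted in the same way, beside the same 58.4% of all genes; astrocyte (3 of 6), oligodendrocyte precursor (3 of 5) and meningeal fibroblast (2 of 5) markers were near or below that share. Granule neuron markers that are not members (*C1ql2*, *Dsp*, *Dock10*, *Plk5* and *Tdo2*) all passed as higher in dorsal DG, with a median log2 fold change of 0.89 (0.39 to 1.47). Among the 16 members that were higher in dorsal DG, 4 (*Eomes*, *Tbr1*, *Igfbpl1* and *Prox1*) were above this median and 12, *Dcx* among them, were below it. Choroid plexus markers were higher in ventral DG in 6 of 6 cases, with a summed level of 388 to 1420 CPM in ventral and 22.5 to 208 CPM in dorsal samples, and 3 of the 6 averaged under 1 CPM in dorsal DG. Ependyma markers were higher in ventral DG in 4 of 4 cases (12.6 to 21.5 CPM against 6.36 to 11.4 CPM), with 2 of 4 under 1 CPM in dorsal and 1 of 4 in ventral DG. Markers of astrocytes, which express many stem cell markers, were higher in ventral DG in 2 cases and in dorsal DG in 1 case of 6 (6161 to 8466 CPM against 5704 to 7239 CPM), and oligodendrocyte precursor markers were higher in ventral DG in 3 of 5 cases (231 to 275 CPM against 208 to 242 CPM).

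No microglia marker and no endothelium marker of 5 each passed edgeR's test (0 and 2 at an unadjusted p under 0.05). Meningeal fibroblast markers were higher in ventral DG in 2 of 5 cases (49.0 to 62.4 CPM against 31.0 to 47.6 CPM), interneuron markers in 4 of 6 cases with 1 higher in dorsal DG, and CA pyramidal markers in 3 of 6 with 2 higher in dorsal DG. Oligodendrocyte markers were higher in dorsal DG in 1 of 5 cases, Cajal-Retzius markers in 2 of the 4 tested, and habenula or thalamus markers in 3 of 5 (84.0 to 119.5 CPM against 24.3 to 31.9 CPM). The part of these cells in the region differences of the members was not tested.

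**Figure D3:**
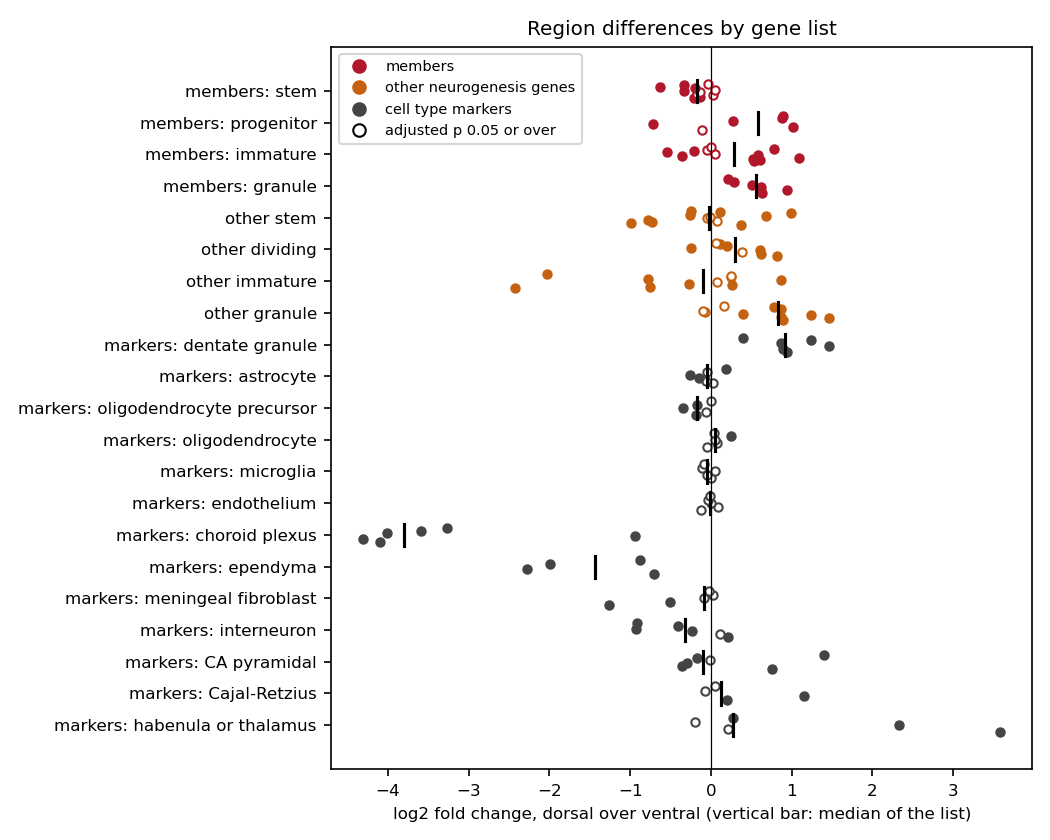
Log2 fold change between dorsal and ventral DG (x axis) of each gene of the 4 member lists, the 4 lists of further neurogenesis genes and the 13 lists of cell type markers (y axis); filled points passed the adjusted p threshold and vertical bars are list medians. The medians of the granule neuron lists lie right of 0, while 2 of 10 further granule neuron genes lie left of it, and choroid plexus (median -3.80) and ependyma markers lie left of 0.

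The second comparison asked whether EE changed the stage markers in dorsal DG. No member passed (0 of 35 by the quasi-likelihood test of edgeR after adjustment), and few genes of any kind did, 0.716% of those tested. DESeq2 and edgeR's likelihood ratio test each called 1 member, *Sox2*. At an unadjusted p under 0.05 there were 6 members, beside 8.81% of all genes: *Sox2*, *Nes*, *Eomes*, *Bhlhe22* and *Calb1* with lower and *Klf9* with higher values in EE. The median log2 fold change was -0.14 for stem cell, -0.14 for progenitor, 0.02 for immature neuron and -0.08 for granule neuron markers, and -0.0034 for all genes. Of the 11 stem cell markers 1 was above 0 (*Hopx*), beside 48.6% of all genes. The members share samples and many of them cells, so this count is a description.

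*Sox2* came closest to the threshold in dorsal DG and is given in full for that reason, as are the other 3 genes whose groups did not overlap. It was at 40.5, 41.1, 39.1 and 35.8 CPM in dorsal SH and 35.8, 30.2, 30.0, 34.6 and 34.2 CPM in dorsal EE, against 43.9, 47.0, 39.1 and 41.0 CPM in ventral SH and 41.2, 42.0, 37.3, 41.8 and 39.8 CPM in ventral EE. The highest dorsal EE sample (35.76 CPM) was only just below the lowest dorsal SH sample (35.78 CPM). The log2 fold change of EE was -0.25 (95% interval -0.38 to -0.11, edgeR adjusted p = 0.0766). Its adjusted p was 0.024 in the likelihood ratio test, 0.0332 in DESeq2, 0.0483 without a count filter and 0.0416 with all 20 samples.

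*Nes* was at 15.7, 18.2, 18.3 and 16.8 CPM in dorsal SH and 15.1, 15.0, 14.3, 15.0 and 13.4 CPM in dorsal EE, and *Eomes* was at the dorsal values already given, 1.72 to 2.08 CPM in SH and 1.40 to 1.61 CPM in EE. *Calb1* was at 232, 226, 226 and 249 CPM in dorsal SH and 186, 167, 210.4, 225 and 198 CPM in dorsal EE. In each of them all SH samples were above all EE samples, as for 4 of 35 members, beside 1.78% of all genes (3.99% in either direction). Log2 fold changes of EE were -0.24 (95% interval -0.40 to -0.09, edgeR adjusted p = 0.191) for *Nes*, -0.33 (95% interval -0.65 to -0.02, edgeR adjusted p = 0.531) for *Eomes* and -0.24 (95% interval -0.42 to -0.06, edgeR adjusted p = 0.317) for *Calb1*. Summed astrocyte markers were at 6140 to 7239 CPM in dorsal SH and 5704 to 7193 CPM in dorsal EE, and summed granule neuron markers at 952.5 to 1086 CPM and 936 to 1009 CPM, and the part of these cells was not tested.

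For the usual markers of new neurons the intervals included 0 in dorsal DG. The log2 fold change of EE was -0.10 for *Dcx* (95% interval -0.30 to 0.11), -0.14 for *Neurod1* (-0.34 to 0.06), 0.18 for *Igfbpl1* (-0.10 to 0.45), 0.05 for *Sox11* (-0.08 to 0.17) and -0.10 for *Prox1* (-0.28 to 0.07). Leaving out 1 pool moved these values by over 1.5 times, to between -0.13 and -0.06 for *Dcx*, -0.19 and -0.07 for *Neurod1*, 0.12 and 0.28 for *Igfbpl1*, 0.02 and 0.09 for *Sox11* and -0.15 and -0.06 for *Prox1*, and none changed sign. The median half-width of the 95% intervals over the 35 members was 0.17, so intervals around smaller differences mostly included 0 with 4 and 5 samples. To pass after adjustment took more than an interval without 0, since *Nes*, *Eomes* and *Calb1* had such intervals and did not pass.

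In ventral DG no member passed either (0 of 35 in edgeR's test, in its likelihood ratio test and in DESeq2, beside 0.246% of all genes in edgeR's test). At an unadjusted p under 0.05 there were 3 members, *Sox11* (0.15), *Cd24a* (0.23) and *Btg2* (0.23), all with higher values in EE, beside 7.58% of all genes. *Dcx* was at 0.07 (95% interval -0.15 to 0.29), *Neurod1* at -0.18 (-0.38 to 0.03), *Eomes* at -0.29 (-0.68 to 0.10), *Igfbpl1* at 0.08 (-0.25 to 0.41) and *Prox1* at -0.13 (-0.30 to 0.05). Leaving out 1 pool gave -0.01 to 0.14 for *Dcx*, -0.38 to -0.15 for *Eomes*, 0.0008 to 0.27 for *Igfbpl1* and -0.19 to -0.08 for *Prox1*. In no member were all EE samples apart from all SH samples, beside 2.45% of all genes. Stem cell markers had a median log2 fold change of 0.06, with 9 of 11 above 0, beside 49.9% of all genes.

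**Figure D4:**
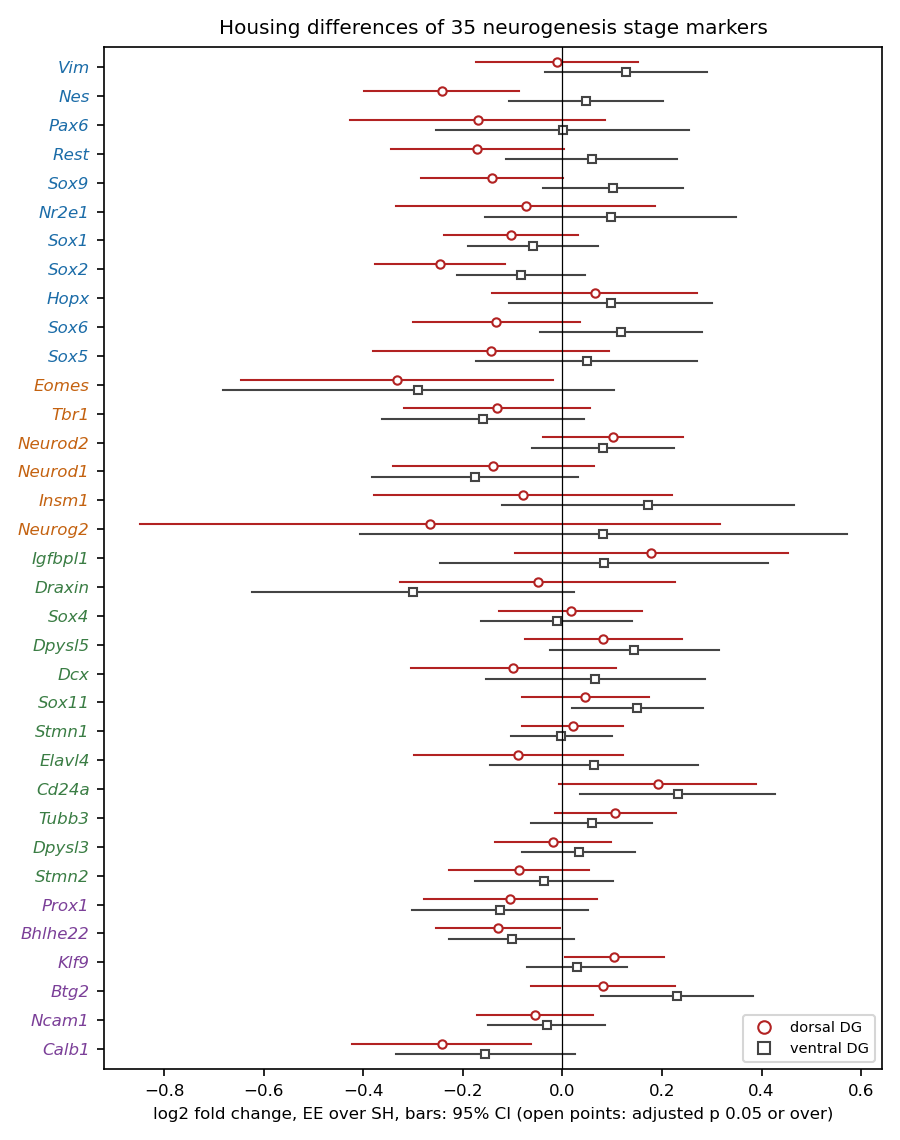
Log2 fold change between EE and SH (x axis) in dorsal (red circles) and ventral (grey squares) DG of each member, with 95% confidence intervals from edgeR over 18 samples. All points are open because no member passed, and *Sox2* in dorsal DG (-0.25) has the smallest adjusted p.

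Whether EE acted differently in the 2 regions was tested by the interaction of region and housing. No member passed (0 of 35 in edgeR's test, in its likelihood ratio test and in DESeq2), and 1 gene of 17040 did (0.00587%). At an unadjusted p under 0.05 there were 3 members, all stem cell markers, beside 3.25% of all genes. These were *Nes* (-0.29, 95% interval -0.51 to -0.07), *Sox9* (-0.24, -0.44 to -0.04) and *Sox6* (-0.25, -0.48 to -0.02), each with an edgeR adjusted p of 1. Interaction values were below 0 for all 11 stem cell markers (median -0.17), which means that the difference of EE from SH was lower in dorsal than in ventral DG. They were above 0 for 3 of 6 progenitor, 5 of 12 immature neuron and 2 of 6 granule neuron markers, beside 48.8% of all genes.

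Among the genes that are not members, no gene of the 4 further lists passed edgeR's test for EE in either region. At an unadjusted p under 0.05 in dorsal DG there were 4 of 12 stem cell, 0 of 8 dividing cell, 4 of 10 immature neuron and 2 of 10 granule neuron genes, beside 8.81% of all genes. Of the cell type markers 1 passed, the microglia receptor *P2ry12* in dorsal DG (-0.23, edgeR adjusted p = 0.0441).

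Part of the spread within groups was shared by the members of a stage. In ventral SH, replicate 2 had the highest level of 10 of 11 stem cell markers and replicate 4 the lowest level of 8. In dorsal EE, replicate 5 had the lowest level of 7 of 11. Summed astrocyte markers were at 7657 CPM in ventral SH replicate 2 and 6331 CPM in replicate 4, the highest and lowest of that group, and at 5704 CPM in dorsal EE replicate 5, the lowest of that group. In dorsal SH, replicate 2 had the lowest level of 7 of 12 immature neuron, 5 of 6 progenitor and 5 of 6 granule neuron markers, and the highest of 7 of 11 stem cell markers. Its summed astrocyte level of 7239 CPM was the highest of dorsal SH. In these 4 samples the extremes of stem cell and astrocyte markers went together, and the part of astrocytes in the values of the stem cell markers was not tested.

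**Figure D5:**
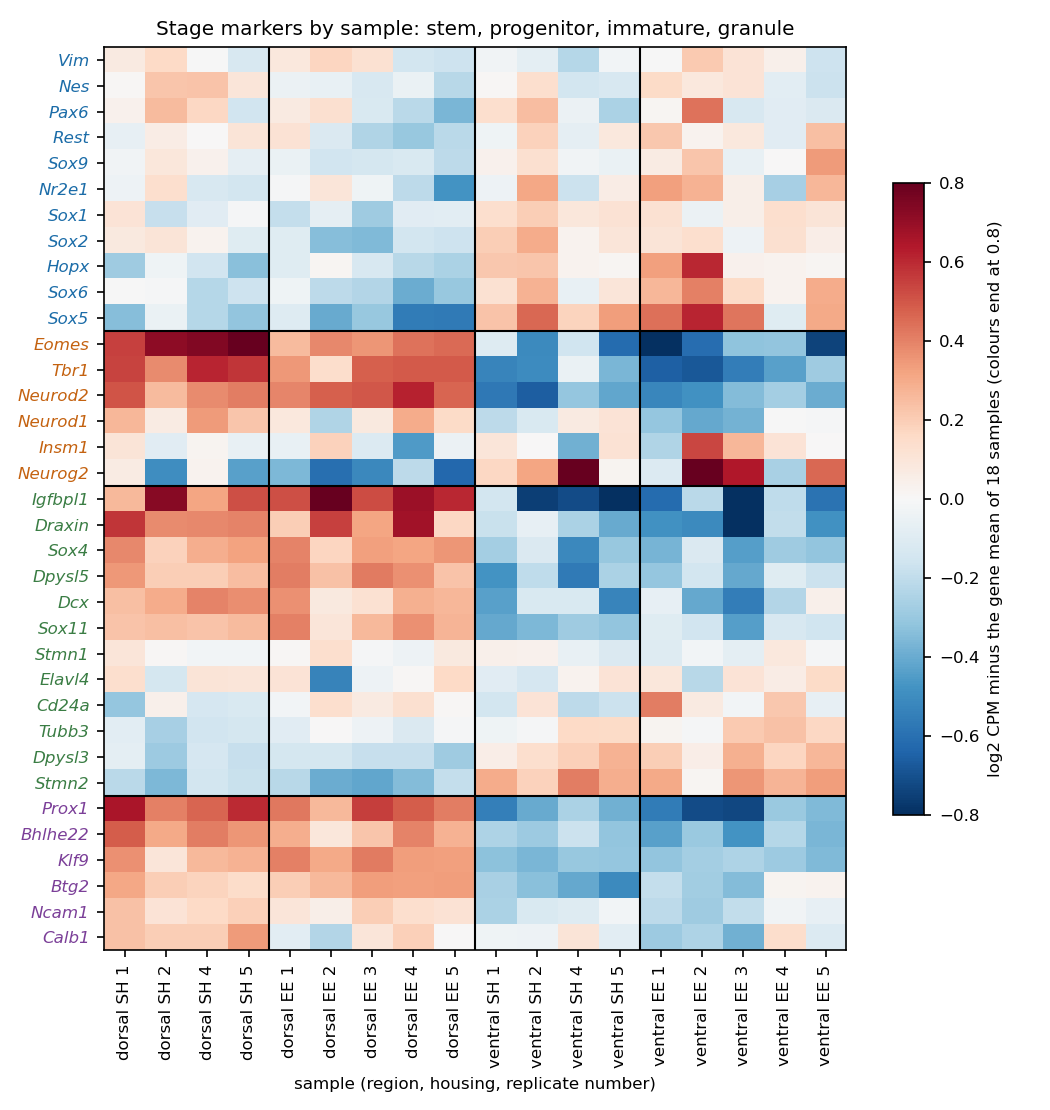
Log2 CPM of the 35 members (rows, by stage) in 18 samples (columns, by group), each minus the mean of its gene; red is above and blue below the mean, and colours end at 0.8. Progenitor, immature and granule neuron markers are mostly red in dorsal and blue in ventral samples, with *Neurog2*, *Stmn2*, *Dpysl3* and *Tubb3* in the opposite direction, and stem cell markers are paler with whole columns darker or lighter.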

How the data were processed

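RNA-Seq was analysed for 20 samples of mouse dorsal and ventral DG, 18 of which entered the comparisons; the methylation samples of the series were not analysed here. The submitters' processing notes list Trim Galore 0.4.0, STAR 2.5.1b and RSEM 1.2.30 with build mm10. The authors deposited counts of fragments per gene, on the strand of the library, and RSEM tables with expected counts, TPM and FPKM. FPKM was not used. Uncounted fragments (32.6 to 40.9%) stayed out of library sizes. The 4 genes with the highest TPM in each sample hold 57.9 to 67.8% of the deposited TPM, so TPM served only to order genes within the same samples.

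Gene IDs were given symbols from Gencode GRCm38 (45968 of 46480 matched). Genes needed over 10 counts in 2 or more samples, which left 17040, and were tested in edgeR 4.0.16 (R 4.3.3) with TMM scaling and quasi-likelihood tests of region, of EE within each region and of their interaction, on the 18 samples, with Benjamini-Hochberg adjustment over all of them. A gene passed at an adjusted p under 0.05. These tests have no term for the pool, so the p-values measure the spread between samples within groups. The pairing of dorsal and ventral samples entered only in the replicate block. Dorsal and ventral samples were paired by housing and replicate number, since the sample titles do not say which samples share mice. Deviations from group means correlated by 0.0827 on average within the 9 pools (-0.084 to 0.189). Between dorsal and ventral samples of different pools the mean was -0.023 (-0.209 to 0.203). Between EE and SH samples of the same number and region it was 0.126. These values do not settle the pairing.

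Sample values were given for the 2 members of each stage and direction with the largest region difference among those that passed, and for the lists the largest rise and fall. *Sox2*, *Dcx*, *Nes* and *Calb1* were added after their values were seen, as were the members given by fold change alone. The members and lists were chosen with earlier results of these data known. Alternatives were edgeR's likelihood ratio test, DESeq2 1.42.0, RLE size factors, other filters, expected counts (rounded) and all 20 samples. The others were a fold limit, a joint test of the region difference in both housings, a replicate block and leaving out each replicate.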

Additional observations from a re-analysis of the deposited data

Results flagged for a closer look

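Within groups of 4 or 5 samples, 7 of 140 combinations of member and group held 1 sample far from the others by Dixon's test at the 95% level, and chance gives about 1 in 20. *Elavl4* was low in dorsal SH replicate 2 (31.8 CPM, the others 37.5 to 38.5 CPM) and in ventral EE replicate 2 (30.1 CPM, the others 36.5 to 38.9 CPM). Ventral EE replicate 2 was also low in *Stmn2* (180.2 CPM, the others 215 to 228 CPM) and high in *Pax6* (15.9 CPM, the others 10.7 to 11.8 CPM). *Sox11* was low in ventral EE replicate 3 (39.4 CPM, the others 47.9 to 50.0 CPM). *Igfbpl1* was high in ventral SH replicate 1 (5.05 CPM, the others 3.14 to 3.40 CPM), and *Draxin* was high in dorsal SH replicate 1 (3.16 CPM, the others 2.76 to 2.79 CPM).

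In SH replicate 3, which entered no comparison, Xist was at 34.4 CPM in the dorsal and 11.9 CPM in the ventral sample, without TMM scaling.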

How the results depend on the processing

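The 16 members that were higher in dorsal DG passed without any one pool, and the count of members that differed by region ranged from 25 to 27 when 1 pool was left out (18 to 23 in SH alone, 24 to 27 in EE alone). Of the members that were higher in ventral DG, 6 of 10 passed with a change of at least 20%. *Sox9* lost its call without EE replicate 5 or SH replicate 1 (0.085 and 0.064, adjusted p by edgeR). A minimum of 1 TPM in 3 samples left *Eomes*, *Neurog2* and *Draxin* untested, and 23 members then passed. With a replicate block, 28 members differed by region (*Nr2e1* and *Rest* were added). *Rest* also passed with all 20 samples, with expected counts, without EE replicate 1 and in a joint test of both housings (0.031, 0.045, 0.021 and 0.037, adjusted p by edgeR). *Nr2e1* also passed without EE replicate 4 (0.035, adjusted p by edgeR). For EE against SH, where the numbers are only shared and 7 of 8 pairs of the same number correlated above 0.1 (lowest 0.0815), the replicate block left 0 members passing in both regions and in the interaction. The count for EE in dorsal DG was 1 (*Sox2*) with the likelihood ratio test, DESeq2, no count filter and all 20 samples, and 0 under every other alternative and without any one pool. Directions turned for values near 0. The region value of *Nes* was -0.0037 with all 20 samples and -0.0090 to 0.052 without single pools, and that of *Elavl4* was 0.0017 with expected counts and -0.028 to 0.013 without single pools. For EE in ventral DG, *Nes* was at -0.0025 with all 20 samples and *Dcx* at -0.011 to 0.14 without single pools; the cause was not tested. Low counts limit *Eomes*, *Neurog2* and *Draxin* (12 to 88 fragments per sample).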

Other observations

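The Notch target *Hes5* differed by region (log2 fold change of dorsal against ventral DG -0.73, edgeR's test), as did the secreted protein *Thbs4* (0.68), so the further stem cell genes went both ways. *Nnat*, an imprinted gene of developing neurons, was lower in dorsal DG by a log2 fold change of -2.04. Genes in this paragraph beyond the largest rise and fall of their list were chosen after their values were seen.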
